A study of Mus musculus with 87 samples.

Results

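The SOCS family and Usp18 switch cytokine signalling off, and their transcripts were followed here in the mouse ventral midbrain after an injection of interferon-γ (IFN-γ). The set is defined by gene symbols and holds 9 genes, Socs1 to Socs7, Cish and Usp18, out of 48526 genes in the tables, of which 30043 had at least 1 count. Each of the 9 symbols matched 1 row. The mice were C57BL/6J wildtype adults of both sexes aged 6 to 12 months, and each received 400 nL of saline or of saline with 40 ng IFN-γ into the ventral midbrain of both sides. Nuclei taken 6, 24, 48 or 72 h later were sorted with an antibody against the neuronal nuclear protein NeuN into wells for bulk RNA-Seq, giving 84 wells, and 3 further mice killed at 48 h (1 saline, 2 IFN-γ) gave single nuclei. All groups were wildtype, and saline controls were injected in the same way.

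Per fraction there were 6 IFN-γ wells at each time, 4 saline wells at 6, 48 and 72 h and 6 at 24 h. The sample labels call every well NeuN+. The fraction used here came from the study's supplementary sample sheet by well barcode, which gives 42 NeuN+ and 42 NeuN- wells, and the markers went with the sheet: the summed level of 6 oligodendrocyte markers had a median of 341.7 CPM (counts scaled to each well's total, the usual per-million unit) in NeuN+ wells and 7616 CPM in NeuN- wells, and that of the pan-neuronal markers 4819 and 629.2 CPM. Wells came from 2 to 3 mice per condition, and which wells share a mouse was not given, so a p-value here measures the spread between wells and not between mice. Depth set much of what could be seen. NeuN+ wells held 277113 to 1684374 molecule counts (unique molecular identifiers, UMIs) and NeuN- wells 20962 to 301445, with the shallowest being an IFN-γ 6 h well, so 1 UMI is worth far more CPM in a NeuN- well than in a NeuN+ well.

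IFN-γ binds a receptor whose Janus kinases (JAK1 and JAK2) phosphorylate STAT transcription factors, which then switch on target genes. Among those targets are genes that act back on the pathway. SOCS proteins and CISH carry an SH2 domain that binds phosphorylated receptors or kinases, and a SOCS box that recruits an Elongin-Cullin ubiquitin ligase. SOCS1 and SOCS3 also hold a short kinase inhibitory region that blocks JAK activity, and SOCS1 is the main brake on IFN-γ signalling. CISH and SOCS2 are best known as inhibitors of growth hormone, prolactin and related STAT5 signals, SOCS4 and SOCS5 have been tied to the epidermal growth factor receptor, and SOCS6 and SOCS7 to insulin and receptor tyrosine kinase signals. USP18 removes the ubiquitin-like protein ISG15 from its substrates and, apart from that activity, binds the type I interferon receptor subunit IFNAR2 and blocks signalling there.

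The promoters of the inducible members are shown first, because the letters that STAT dimers and IRF factors recognise lie in some of them. RefSeq start sites (mouse build GRCm38.p6) were given for 4 of the 9 members, Socs1, Socs3, Socs4 and Cish, as 250 bases before to 50 bases after the start. Searched on both strands were TTCNNNGAA, the core of a γ-activated or STAT site, the variant of it with 1 more base in the spacer, and GAAA followed after any 2 bases by GAAA, the core of an interferon-stimulated response element. They occur in 8.298%, 6.953% and 3.443% of 32851 promoters of that length. Below, capitals mark the matches, read 5′ to 3′ along the gene's strand:
Socs1, chr16:10785597-10785626, minus strand: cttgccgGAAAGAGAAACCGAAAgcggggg
Socs3, chr11:117969501-117969530, minus strand: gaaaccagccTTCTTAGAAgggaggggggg
Cish, chr9:107296654-107296683, plus strand: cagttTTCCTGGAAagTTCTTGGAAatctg

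In Socs1 the capitals are 2 copies of the response element core, which share 4 bases and end 68 bases before the start site. Socs3 held 1 copy of TTCNNNGAA, 154 to 146 bases before its start site, in a place that the annotation puts inside the Socs3 gene but in no exon. Cish held 2 copies of TTCNNNGAA at its start site, within the first exon and 5′ untranslated region of its transcript and inside the opposite-strand gene model Gm17040. Socs4, whose level is described below among the members with small differences, held none of these letters in its window. A match is a run of letters and was not tested as a binding site.

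Usp18 (ENSMUSG00000030107.10, chr6:121245906-121270917, plus strand, GRCm38) was higher in IFN-γ wells of both fractions at 6 and 24 h, and of the 9 members it alone was called in all 4 of these comparisons. In NeuN+ nuclei at 6 h the 6 IFN-γ wells ran from 24.4 to 43.8 CPM with a median of 34.1, and the 4 saline wells held 0, 1.17, 0 and 1.07 CPM. At 24 h the IFN-γ wells ran from 24.7 to 38.7 CPM (median 29.8), while the 6 saline wells ran from 0 to 1.19 CPM with a median of 0. The groups did not overlap at either time. The saline wells held too few UMIs to pass the low-count filter applied before testing. Usp18 thus passed it through its IFN-γ wells and could only look higher. The rise in NeuN+ nuclei was 5.32 ± 0.48 (log2 fold change ± SE, adjusted p = 2.79e-11), about 39.9-fold, at 6 h and 5.91 ± 0.38 (adjusted p = 7.06e-14), about 60.1-fold, at 24 h, by edgeR's quasi-likelihood test with Benjamini-Hochberg adjustment over all genes tested.

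In NeuN- nuclei, which are mostly glia, Usp18 reached higher CPM from far fewer UMIs. At 6 h the IFN-γ wells held 0 to 113 CPM with a median of 77.4 (60 UMIs in all), against 21.8, 8.56, 0 and 0 CPM in saline (4 UMIs). The IFN-γ well at 0 is the shallowest of the series, and the other 5 lay between 61.0 and 113 CPM, above every saline well. At 24 h the IFN-γ wells ran from 69.0 to 100.5 CPM (median 86.9, 78 UMIs) and 5 of 6 saline wells had none, with 14.7 CPM in the other. Usp18 rose by 3.08 ± 0.56 on the log2 scale at 6 h (adjusted p = 1.82e-06) and by 4.83 ± 0.67 at 24 h (adjusted p = 7.1e-10). Here too the gene passed the count filter through its IFN-γ wells, so the direction was fixed. The response of the 2 fractions was not shown to differ: the interaction, NeuN+ change minus NeuN- change, was 2.01 ± 1.09 at 6 h (adjusted p = 0.419) and 0.35 ± 0.80 at 24 h (adjusted p = 0.921).

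Usp18 then fell. Between 24 and 48 h in IFN-γ wells it decreased by 3.26 ± 0.26 on the log2 scale in NeuN+ nuclei (adjusted p = 4.37e-15) and by 2.12 ± 0.41 in NeuN- nuclei (adjusted p = 8.1e-06). At 48 h the NeuN+ IFN-γ wells held 1.48 to 5.81 CPM (mean 3.34 ± 1.81, SD, n = 6) against 0, 1.23, 2.52 and 0 CPM in saline, a difference of 1.25 ± 0.68 on the log2 scale that did not pass (adjusted p = 0.535). NeuN- IFN-γ wells at 48 h held 9.56 to 38.6 CPM from 12 UMIs and lay above all 4 saline wells (5.19 CPM in 1, 0 in 3), but the gene had too few counts for the filter. At 72 h the groups overlapped in both fractions. The plot of CPM by well shows this rise and fall beside the other induced members.

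The annotation places Gm44148 on the opposite strand across the end of Usp18 (chr6:121255203-121272685), and whether counting used the strand was not stated, so reads of the 2 genes cannot be told apart there. Its mean level moved alongside: in NeuN+ wells 13.6 CPM with IFN-γ and 1.44 CPM with saline at 6 h, and 13.7 and 2.36 CPM at 24 h.

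**Figure D1:**
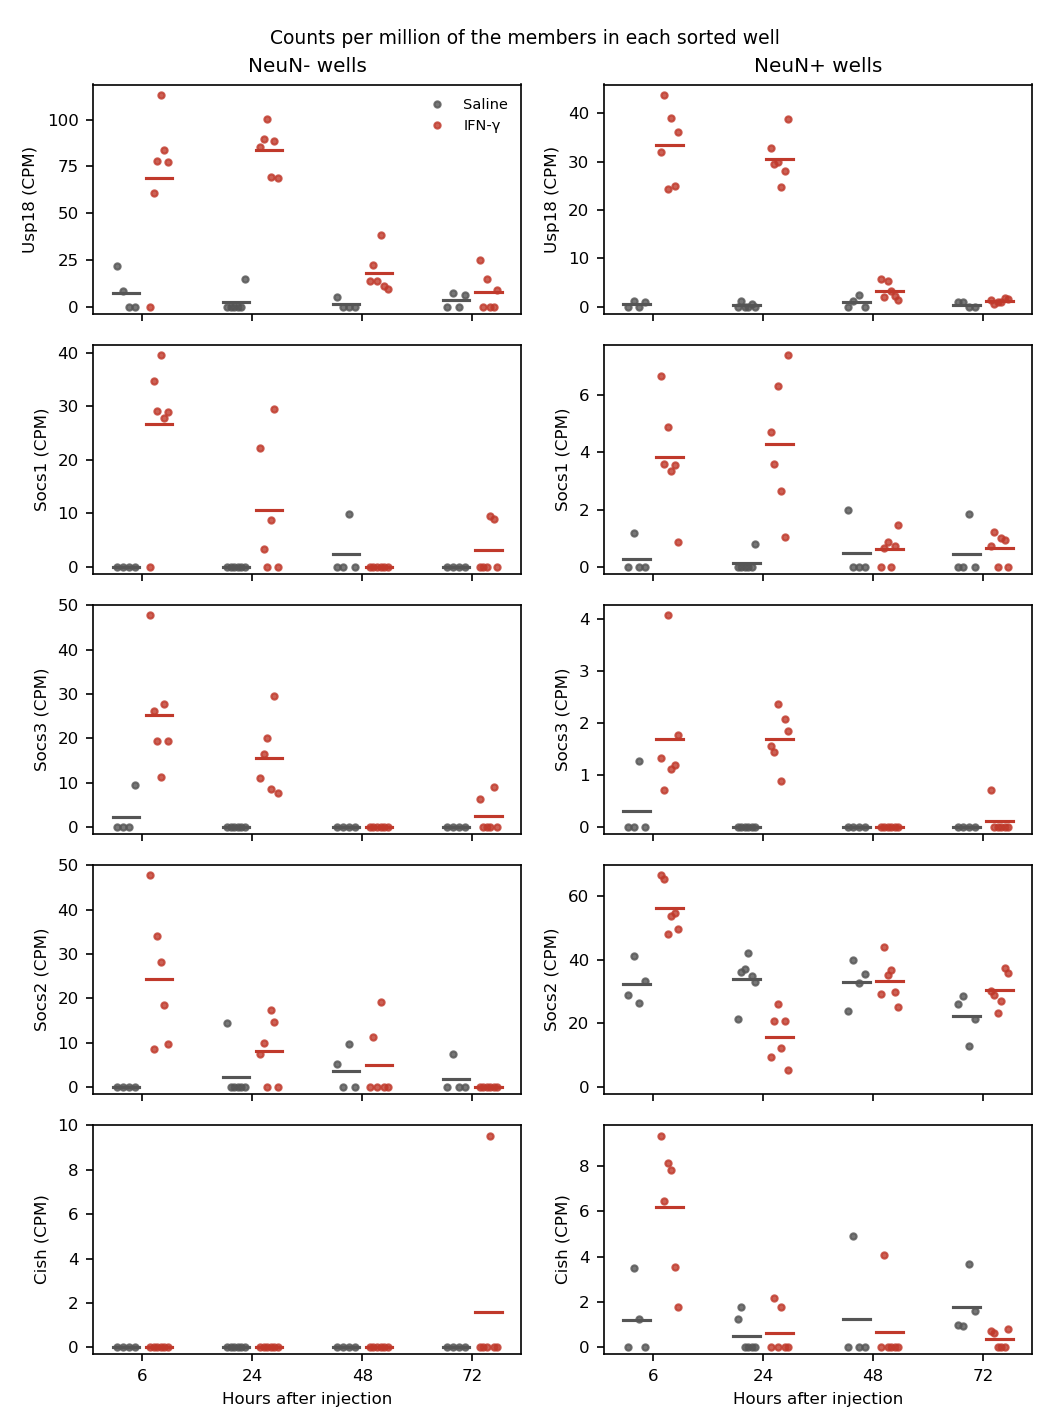
Level in CPM (y axis) of Usp18, Socs1, Socs3, Socs2 and Cish in each well against hours after injection (x axis), with NeuN- wells on the left and NeuN+ wells on the right, saline in grey, IFN-γ in red and horizontal lines at group means. Usp18 stands apart from saline at 6 and 24 h in both fractions, and Socs2 in NeuN+ wells is above saline at 6 h (mean 56.2 against 32.4 CPM) and below it at 24 h (15.8 against 34.0 CPM).

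Socs1 (ENSMUSG00000038037.4, chr16:10782240-10785536, minus strand) was nearly absent in saline and was found in most IFN-γ wells of both fractions at 6 and 24 h. In all 18 saline wells of each fraction there were 4 Socs1 UMIs in NeuN+ and 1 in NeuN- nuclei. At 6 h the NeuN- IFN-γ wells ran from 0 to 39.6 CPM with a median of 29.0 (23 UMIs), the 0 again being the shallowest well, and all 4 saline wells were at 0. Measured against a floor of 3 UMIs over the saline group, 6.53 CPM, the pooled level was at least 4.82-fold higher. The fitted rise was 4.94 ± 1.14 on the log2 scale (adjusted p = 0.00034), but the gene passed the count filter through its IFN-γ wells alone, so its direction was fixed, and the fitted size depends on the small count added to the zeros.

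In NeuN+ nuclei Socs1 was called at 24 h. At 6 h the IFN-γ wells ran from 0.882 to 6.66 CPM (median 3.57, 28 UMIs) against 1.17 CPM in 1 saline well and 0 in 3, a difference of 3.08 ± 0.93 on the log2 scale that missed the threshold (adjusted p = 0.0413). At 24 h they ran from 1.04 to 7.38 CPM (median 4.15, 24 UMIs) against 0.802 CPM in 1 of 6 saline wells, and Socs1 rose by 4.11 ± 0.76 (adjusted p = 0.000362). No IFN-γ well overlapped a saline well then. With so few saline UMIs, the gene again passed the count filter through its IFN-γ wells, so its direction was fixed. In NeuN- nuclei, 4 of the 6 IFN-γ wells at 24 h had any Socs1 (3.32 to 29.4 CPM, 10 UMIs) and no saline well did, which is at least 1.87-fold higher. The gene was under the count filter there.

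At 48 h no Socs1 UMI was found in the 6 NeuN- IFN-γ wells, which allows a pooled level of up to 4.46 CPM, and the 24 to 48 h difference there was not called. The IFN-γ mice of the single-nuclei libraries, also at 48 h, held 6 and 2 Socs1 UMIs in oligodendrocyte-like nuclei and 2 and 1 in astrocyte-like nuclei. In NeuN+ IFN-γ wells it fell by 2.54 ± 0.63 on the log2 scale between 24 and 48 h (adjusted p = 0.00542), to 0.629 ± 0.564 CPM (SD, n = 6) against 0.498 ± 0.995 CPM in saline (n = 4). That call was lost without any 1 of 6 wells (adjusted p of 0.0104 to 0.0303 by edgeR). At 72 h the NeuN+ means were 0.650 ± 0.529 and 0.459 ± 0.919 CPM. The fold differences between fractions were too loosely set to compare, with interactions of -4.04 ± 3.31 at 6 h (adjusted p = 0.641) and -1.85 ± 3.28 at 24 h (adjusted p = 0.872). The NeuN- saline wells held no Socs1 at either time, so the sizes of both interactions depend on the small count added to the zeros.

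Socs3 (ENSMUSG00000053113.3, chr11:117966079-117970047, minus strand) encodes the inhibitor best known for blocking gp130 receptors, those of the interleukin-6 family. It had few UMIs in both fractions. At 6 h all 6 NeuN- IFN-γ wells held Socs3, from 11.3 to 47.7 CPM with a median of 22.8 (15 UMIs), against 9.55 CPM in 1 saline well and 0 in 3. These groups did not overlap, and the difference of 2.75 ± 1.01 on the log2 scale did not pass (adjusted p = 0.0515). At 24 h the 6 IFN-γ wells ran from 7.67 to 29.4 CPM (median 13.9, 13 UMIs) and all 6 saline wells were at 0, which is at least 2.43-fold higher. The counts were under the filter; with no filter the adjusted p was 0.0309.

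In NeuN+ nuclei at 6 h Socs3 was in all 6 IFN-γ wells (0.717 to 4.07 CPM, 12 UMIs) and in 1 of 4 saline wells (1.26 CPM), so the groups overlapped. At 24 h it was again in every IFN-γ well (0.881 to 2.37 CPM, median 1.70, 10 UMIs) and in no saline well, at least 4.16-fold higher, and with no filter this passed the threshold (4.01 on the log2 scale, adjusted p = 0.00446). At 48 h no IFN-γ well of either fraction held a Socs3 UMI. The fall from 24 to 48 h was called in both, by 3.95 ± 1.15 in NeuN- nuclei (adjusted p = 0.00853) and by 4.00 ± 1.02 in NeuN+ nuclei (adjusted p = 0.00728). Both calls rest on few UMIs: the NeuN- call was lost without any 1 of the 48 h wells and without any of 3 of the 24 h wells (adjusted p of 0.0108 to 0.0243 by edgeR), and the NeuN+ call without any of 10 of the 12 wells (0.0108 to 0.0224).

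Socs2 (ENSMUSG00000020027.18, chr10:95385362-95417180, minus strand), an inhibitor of growth hormone signalling, had differences of opposite sign at 6 and 24 h in NeuN+ nuclei. It was mainly a NeuN+ transcript in saline, with 30.8 ± 7.77 CPM in 18 NeuN+ wells and 2.05 ± 4.28 CPM in 18 NeuN- wells (SD), and it was the member with the largest saline difference between fractions (3.94 ± 0.38 on the log2 scale, adjusted p = 6.9e-15). At 6 h the NeuN+ IFN-γ wells ran from 48.0 to 66.6 CPM (median 54.0) and the saline wells held 28.9, 41.0, 26.5 and 33.3 CPM, with no overlap. The ratio of means was 1.73. The difference of 0.74 ± 0.16 on the log2 scale had an adjusted p of 0.00303 and was under the size threshold of 1 used for a call.

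At 24 h the order was the reverse: NeuN+ IFN-γ wells ran from 5.53 to 26.0 CPM (median 16.5) and saline wells from 21.3 to 41.9 CPM (median 35.5), with 5 of 6 IFN-γ wells below every saline well and a ratio of means of 0.465. Here too the difference, -0.94 ± 0.20 (adjusted p = 0.00199), was just under the size threshold, and it passed the threshold without any 1 of 4 wells (saline well 1 or IFN-γ wells 2, 3 or 5), reaching -1.13. Within IFN-γ wells the fall from 6 to 24 h was called, at 1.69 ± 0.17 on the log2 scale (adjusted p = 1.5e-11), and the difference from 24 to 48 h was 0.96 ± 0.18 (adjusted p = 0.000171), again under the size threshold. At 48 h the means were 33.3 ± 6.71 CPM with IFN-γ and 33.0 ± 6.76 with saline. At 72 h they were 30.4 ± 5.33 and 22.3 ± 6.95 CPM (0.35 ± 0.18 on the log2 scale, adjusted p = 0.368).

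In NeuN- nuclei, where saline wells at 6 h held no Socs2, every IFN-γ well at 6 h held some, from 8.71 to 47.7 CPM with a median of 23.4. These came from 17 UMIs in all, and 3 of the wells had 1 UMI each. The pooled level was at least 3.57-fold higher than the floor, and the fitted rise was 4.52 ± 1.23 (adjusted p = 0.00371), with the direction again fixed by the filter. Without any 1 of the 4 saline wells this call was lost (adjusted p of 0.0112 to 0.0183 by edgeR). At 24 h the NeuN- IFN-γ wells held 8.25 ± 7.28 CPM (SD, n = 6), while 1 of 6 saline wells held 14.4 CPM and the others 0. The interaction was -5.73 ± 1.82 at 6 h (unadjusted p = 0.00186, adjusted p = 0.0582) and -3.04 ± 1.20 at 24 h (adjusted p = 0.150), so a difference between fractions was not called. At 6 h the NeuN- saline wells held no Socs2, so the size of that interaction depends on the small count added to the zeros. That interaction cannot decide whether the fractions differed. The study lists Socs2 among genes with a significant DESeq2 interaction, raised by IFN-γ in glia alone, which differs from the outcome here. The reason for this was not tested.

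Cish (ENSMUSG00000032578.7, chr9:107296026-107302784, plus strand), the founding SOCS member and a STAT5 target, was measurable in NeuN+ nuclei only: 1 UMI was found over all 42 NeuN- wells, and at that depth a low level there was not detectable. In NeuN+ nuclei at 6 h the IFN-γ wells ran from 1.76 to 9.32 CPM (median 7.14, 45 UMIs) against 0, 3.52, 1.26 and 0 CPM in saline (4 UMIs). Of the IFN-γ wells, 5 of 6 lay above all saline wells. The difference of 2.06 ± 0.66 did not pass (adjusted p = 0.0588). Between 6 and 24 h in IFN-γ wells Cish fell by 2.77 ± 0.62 on the log2 scale (adjusted p = 0.00161), to 0.654 ± 1.02 CPM against 0.506 ± 0.801 CPM in saline at 24 h (SD, n = 6 each). Without NeuN+ IFN-γ well 3 of 24 h that fall sat at the threshold (adjusted p = 0.0101 by edgeR). At 72 h all 6 IFN-γ wells (0 to 0.795 CPM, 3 UMIs) lay below the 4 saline wells (0.925 to 3.68 CPM, 6 UMIs), counts too low to test.

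Socs4 to Socs7 were expressed in both fractions and moved little. Socs4 (ENSMUSG00000048379.8, chr14:47276931-47296102, plus strand) had group means of 31.5 to 61.4 CPM in NeuN- and 22.5 to 30.7 CPM in NeuN+ nuclei. Socs5 (ENSMUSG00000037104.8, chr17:87107679-87137839, plus strand) had means of 17.1 to 35.1 and 39.4 to 48.8 CPM, Socs6 (ENSMUSG00000056153.14, chr18:88665224-88927481, minus strand) of 35.6 to 51.3 and 63.8 to 82.6 CPM, and Socs7 (ENSMUSG00000038485.5, chr11:97362551-97398542, plus strand) of 11.5 to 31.5 and 34.3 to 42.4 CPM. None of the 4 was called between IFN-γ and saline at any time in either fraction.

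The differences with the lowest p among them were in NeuN+ nuclei. Socs6 was 63.8 ± 10.5 CPM with IFN-γ and 78.3 ± 4.77 CPM with saline at 72 h, with 5 of 6 IFN-γ wells below every saline well (-0.31 ± 0.11 on the log2 scale, adjusted p = 0.117), and 66.5 ± 8.23 and 82.6 ± 11.2 CPM at 24 h (-0.27 ± 0.11, adjusted p = 0.125). Socs4 at 48 h was 30.7 ± 7.15 CPM with IFN-γ and 22.5 ± 4.66 CPM with saline (0.44 ± 0.20, adjusted p = 0.431). In NeuN- nuclei Socs7 at 72 h was 28.9 ± 25.3 and 11.5 ± 5.24 CPM (1.20 ± 0.65, adjusted p = 0.562), where the spread between IFN-γ wells was close to their mean.

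**Figure D2:**
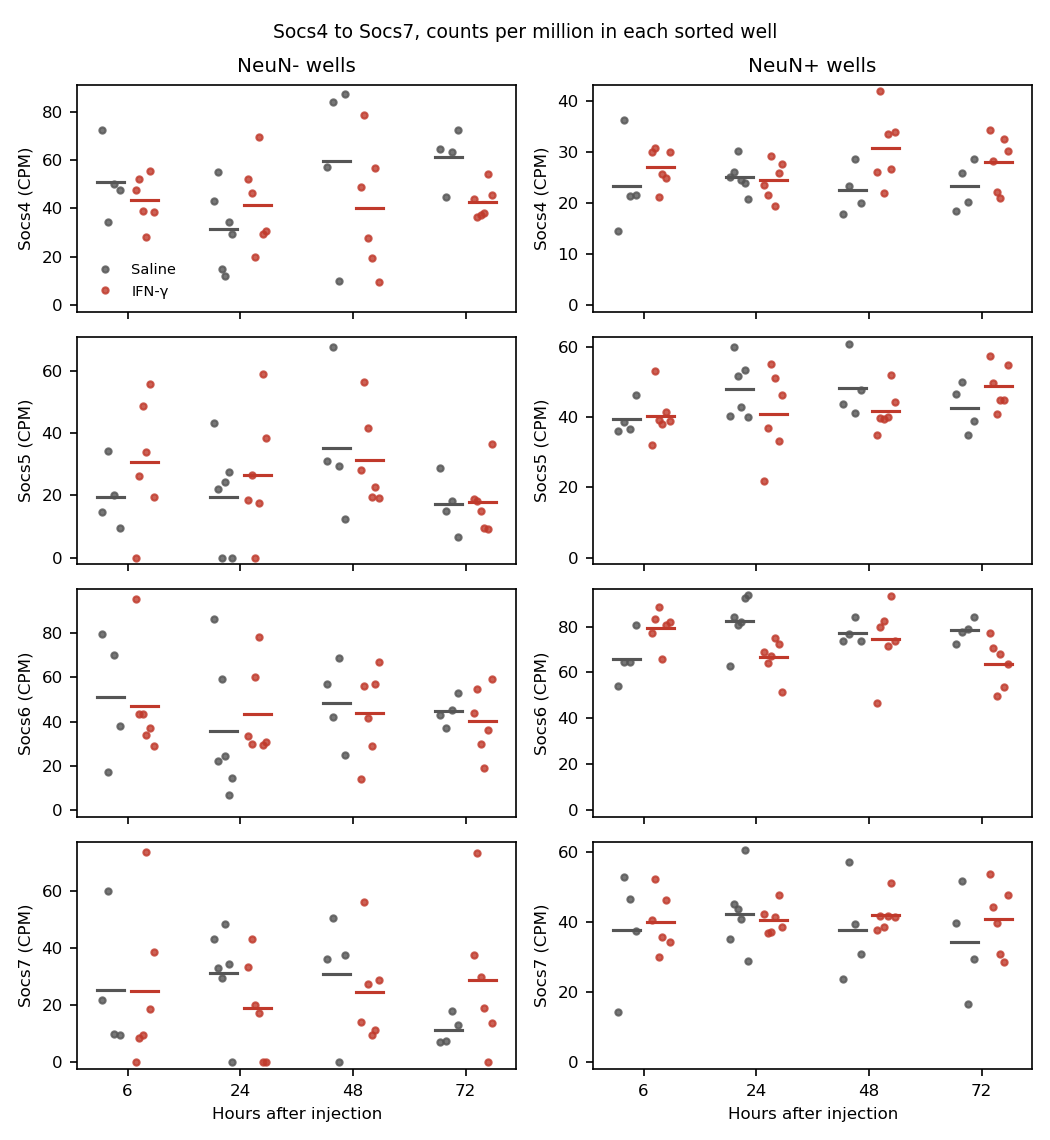
Level in CPM (y axis) of Socs4, Socs5, Socs6 and Socs7 in each well against hours after injection (x axis), with NeuN- wells on the left and NeuN+ wells on the right, saline in grey, IFN-γ in red and lines at group means. Saline and IFN-γ wells overlap for each gene at each time; the widest NeuN+ gap in Socs6 is at 24 h, with means of 66.5 and 82.6 CPM.

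The number of members called at each time, with a call meaning a log2 change beyond 1 in either direction and an adjusted p under 0.01, was as follows. At 6 h in NeuN- nuclei 3 of 8 members tested were called (Socs1, Socs2 and Usp18), where 5.77% of all genes tested were called. At 6 h in NeuN+ nuclei 1 of 8 was called (Usp18), with 1.09% of all genes. At 24 h 1 of 5 was called in NeuN- nuclei (Usp18; 7.61% of all genes) and 2 of 7 in NeuN+ nuclei (Usp18 and Socs1; 1.57% of all genes). DESeq2 called 1 member, Usp18, in each of these 4 comparisons and gave no adjusted p for Socs1 or for Socs2 in NeuN- nuclei at 6 h, nor for Socs1 in NeuN+ nuclei at 24 h, and edgeR with its default filter called 0 in NeuN- nuclei at both times. Members that passed the count filter through their IFN-γ wells alone had to look higher, so the counts are a description.

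At 48 and 72 h edgeR called 0 of the 4 and 4 NeuN- members tested and 0 of the 6 and 5 NeuN+ members tested, where 0.637%, 0.592%, 0.157% and 0.606% of all genes were called. Of these, Socs4 in NeuN+ nuclei at 48 h and Socs6 in NeuN+ nuclei at 72 h had an unadjusted p under 0.05, and none did in NeuN- nuclei. DESeq2 called 0 in each, with no adjusted p for 1 member of each fraction at 48 h. No member had a called interaction at any time, with 0.975%, 2.14%, 0.0556% and 0.226% of all genes called at 6, 24, 48 and 72 h. At an unadjusted p under 0.05 there was 1 member at each time, Socs2 at 6 and 24 h and Socs4 at 48 and 72 h. DESeq2 called 0, but it gave no adjusted p for 3, 2, 6 and 3 members at 6, 24, 48 and 72 h. At 48 h these were all 6 members tested, so that count was fixed at 0. The interactions of Cish at 6 h and Socs3 at 24 h could not be estimated. Cish had no counts in NeuN- wells of either treatment, and Socs3 none in saline wells of either fraction. For Socs1 at 6 and 24 h and Socs2 at 6 h the NeuN- saline wells had no counts, so the sizes of those interactions rest on the added count.

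**Figure D3:**
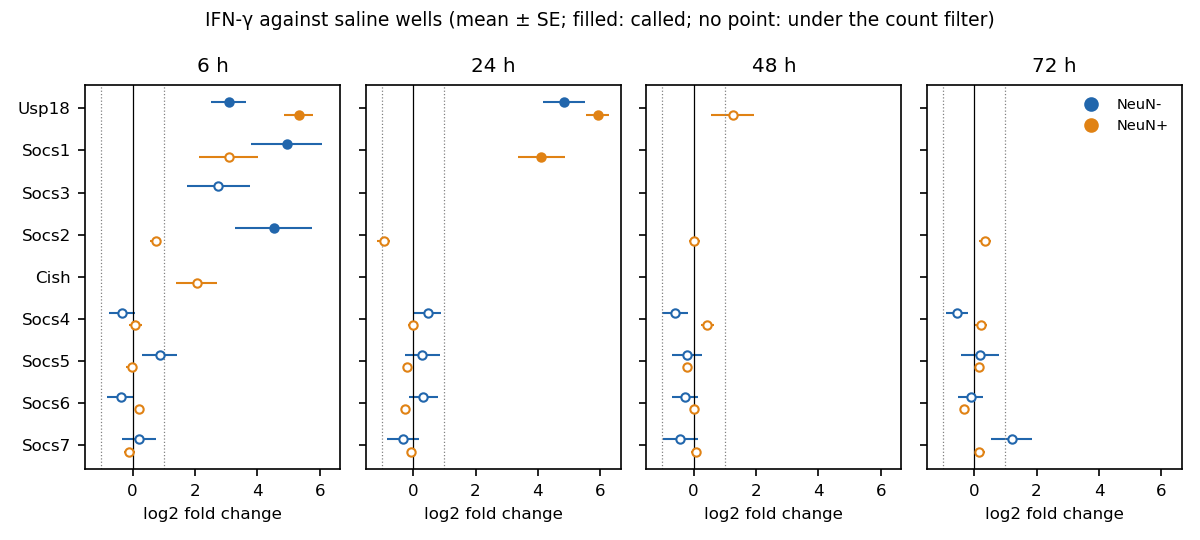
Log2 fold change of IFN-γ over saline (x axis, points with bars of 1 SE) for each member (y axis), with 1 panel for each time after injection. NeuN- is in blue and NeuN+ in orange, with filled points called and dotted lines at 1 and -1. A missing point was under the count filter. The filled points are Usp18 in both fractions at 6 and 24 h (3.08 to 5.91), Socs1 in NeuN- at 6 h (4.94) and NeuN+ at 24 h (4.11), and Socs2 in NeuN- at 6 h (4.52).

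Judged without a model, 2 members had all NeuN- IFN-γ wells above all saline wells at 6 h (Socs2 and Socs3; 2.19% of genes with a count), 2 at 24 h (Socs3 and Usp18; 2.19%) and 1 at 48 h (Usp18; 1.04%). In NeuN+ nuclei these were 2 at 6 h (Socs2 and Usp18; 2.81%) and 3 at 24 h (Socs1, Socs3 and Usp18; 1.47%). The single case in the other direction was Cish in NeuN+ nuclei at 72 h, where 1.41% of genes lay below all saline wells.

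Changes between successive times in IFN-γ wells had their own pattern. From 6 to 24 h no NeuN- member was called by edgeR (3.97% of all genes), where Socs1 and Socs2 had an unadjusted p under 0.05. DESeq2 called 0 there and gave no adjusted p for 3 of the 8 tested. In NeuN+ nuclei Socs2 and Cish fell (1.21%). From 24 to 48 h Usp18 and Socs3 fell in NeuN- nuclei (4.65%), where Socs1 differed by -3.59 ± 1.19 with an adjusted p of 0.0280, and Usp18, Socs1 and Socs3 fell in NeuN+ nuclei (1.28%). From 48 to 72 h edgeR called none in either fraction (0.123% and 0.31%), with 1 NeuN- and 2 NeuN+ members at an unadjusted p under 0.05. DESeq2 called 0 as well, but gave no adjusted p for 8 of 8 NeuN- and 3 of 9 NeuN+ members. Its NeuN- count was thus fixed at 0. In NeuN+ wells, therefore, the called falls of Socs2 and Cish were between 6 and 24 h and those of Usp18, Socs1 and Socs3 between 24 and 48 h. Summed Y-linked RNA in IFN-γ wells also differed between neighbouring times. It was 0 to 95.4 CPM at 6 h, 691.9 to 1178 at 24 h, 7.42 to 70.1 at 48 h and 891.2 to 1413 at 72 h. Time and Y-linked RNA cannot be told apart in these falls.

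In saline wells 5 members could be compared between fractions and all 5 were called at a log2 difference beyond 0.5, where 48.0% of all genes were. Besides Socs2, Socs5 (45.0 ± 7.74 CPM in NeuN+ and 22.5 ± 16.2 in NeuN- wells, SD, 18 wells each; 1.08 ± 0.19 on the log2 scale, adjusted p = 1.17e-06), Socs6 (76.7 ± 10.3 and 43.9 ± 23.2 CPM; 0.93 ± 0.15, adjusted p = 1.37e-07) and Socs7 (38.6 ± 13.0 and 25.6 ± 18.4 CPM; 0.79 ± 0.23, adjusted p = 0.0023) were higher in NeuN+ nuclei. Socs4 was the exception and was higher in NeuN- nuclei (48.8 ± 23.4 CPM against 23.7 ± 5.17; -0.92 ± 0.18, adjusted p = 5.84e-06). Fewer nuclei of a type and less RNA per nucleus cannot be told apart in such bulk wells.

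Other values moved with the members. In NeuN- wells the summed oligodendrocyte markers at 24 h were 2347 to 2944 CPM with IFN-γ and 7044 to 8623 CPM with saline, and at 6 h 3816 to 4872 and 6921 to 7973 CPM. Astrocyte markers at 24 h were 1705 to 2267 CPM against 557.4 to 1207 CPM, those of oligodendrocyte precursors 2547 to 2954 against 496.8 to 1495 CPM, and the 6 microglial markers at 6 h 0 to 125.4 against 219.6 to 319.9 CPM. In NeuN+ wells at 24 h the astrocyte sum was 279.8 to 306.7 CPM with IFN-γ and 100.3 to 225.4 with saline. Neuron markers in NeuN+ wells moved too. The 6 dopamine neuron markers summed to means of 453.7 CPM with IFN-γ and 346.7 with saline at 6 h, 256.4 and 290.4 at 24 h, and 500.9 and 205.6 at 72 h, the signs that the Socs2 differences had at those times. At 48 h the means of that sum were 368.2 and 326.8 CPM, while those of Socs2 were 33.3 and 33.0 CPM. The ranges of the sum overlapped at 6, 24 and 48 h, and those at 72 h did not. The 3 VGLUT2 neuron markers had the opposite signs at 6, 24 and 72 h and the same sign at 48 h (means of 1922.4 and 1689.2 CPM). They summed to means of 1587.5 CPM with IFN-γ and 1962.8 with saline at 6 h, 2064 and 1883.1 at 24 h, and 1480.4 and 2119.3 at 72 h. The 3 GABA neuron markers at 24 h summed to 107.4 to 160.5 CPM with IFN-γ and 205.7 to 323.2 with saline. Their part in the changes of Usp18, Socs1, Socs2 and Socs3 was not tested.

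The NeuN+ level as a share of the NeuN- level sets the induced members beside glial markers. Within IFN-γ wells at 6 h this share was 48.6% for Usp18, 14.3% for Socs1 and 6.71% for Socs3, and 4.03% for the oligodendrocyte sum, 14.2% for the astrocyte sum and 65.0% for the microglial sum. At 24 h it was 36.6% for Usp18, 40.3% for Socs1 and 10.9% for Socs3, against 10.95% for the oligodendrocyte, 15.1% for the astrocyte and 38.1% for the microglial sum. Socs1 was near the astrocyte share at 6 h and above each glial share at 24 h. Socs3 was under the astrocyte share at both times and near the oligodendrocyte share at 24 h. Usp18 was thus above the astrocyte and oligodendrocyte shares at both times. Against the microglial sum the order depended on the wells: its share in saline wells was 15.3% at 6 h and 18.4% at 24 h, under the Usp18 share, and its NeuN- level at 6 h was 83.1 CPM with IFN-γ and 271.1 with saline. That sum includes P2ry12, which in single nuclei stood at 88.7 to 90.8 CPM in the neuron-like classes. Csf1r, another of its markers, was at 0.523 to 0.824 CPM there. The microglial share is therefore not a measure of microglial RNA alone.

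Sex-linked RNA was not balanced between the groups. Summed Y-linked RNA was 0 to 95.4 CPM in IFN-γ and 151.5 to 362.7 CPM in saline wells at 6 h. At 24 h it was 691.9 to 1178 CPM in all IFN-γ wells, but 14.8 to 1289 CPM in saline wells. Against the 2 saline wells per fraction with over 500 CPM, an alternative chosen after the data were seen, Usp18 at 24 h rose by 6.09 on the log2 scale in NeuN+ nuclei (adjusted p = 1.19e-09) and by 3.83 in NeuN- nuclei (adjusted p = 0.000271), Socs2 in NeuN+ nuclei was at -0.92 (adjusted p = 0.0321) and the Socs1 call was lost (3.23, adjusted p = 0.0485). At 6 h, against saline wells of all times, Usp18 rose by 5.44 in NeuN+ nuclei, and Socs1 (3.58, adjusted p = 2.01e-06) and Cish (2.30, adjusted p = 0.000203) passed as well. The X-linked RNA Xist had means of 1061.8 CPM with IFN-γ and 1069.7 CPM with saline in NeuN+ wells at 6 h. In NeuN- wells at 6 h the means were 4352.7 and 3689.5 CPM. For scale, IFN-γ wells at 24 h had Xist means of 50.5 (NeuN+) and 190.4 CPM (NeuN-). Y-linked RNA and treatment cannot be told apart within the 6 h wells.

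The members lie in a pathway, and its other genes were read from lists chosen with earlier results of these data known. Of 14 JAK-STAT core genes, 5 of 11 tested rose in NeuN- nuclei at 6 h and 5 of 12 in NeuN+ nuclei, and at 24 h 5 of 11 and 5 of 14, where 5.77%, 1.09%, 7.61% and 1.57% of all genes tested were called. The list's median log2 changes were 0.86, 0.65, 1.51 and 0.39, against -0.02, 0.00, 0.07 and -0.01 over all genes tested. Irf1, a transcription factor that IFN-γ switches on, rose by 6.91 ± 0.47 on the log2 scale in NeuN- and by 6.26 in NeuN+ nuclei at 6 h, and by 6.34 and 5.95 at 24 h. Over the 18 saline wells of each fraction Irf1 had 4 UMIs in NeuN- and 14 in NeuN+ nuclei. It passed the count filter through its IFN-γ wells, so its direction was fixed. The list counts and medians, here and below, can include such genes and are a description. At 48 and 72 h, when no member was called, 2 of 10 and 2 of 11 core genes were called higher in NeuN- nuclei, among them Stat2 (2.37 and 1.54), while edgeR called 0 of 13 core genes in NeuN+ nuclei (2 and 3 at an unadjusted p under 0.05). Of all genes tested at 48 and 72 h, 0.637% and 0.592% were called in NeuN- and 0.157% and 0.606% in NeuN+ nuclei. The kinase gene Jak2 rose in NeuN- nuclei at 6 h by 1.91 ± 0.16, and its interaction was called at 6 h (-1.25 ± 0.19, adjusted p = 4.31e-07), as was that of Stat2 at 48 h (-2.21 ± 0.39, adjusted p = 0.00111).

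The genes around the members were read in the same way. The 4 SOCS box ligase partners (Elob, Eloc, Cul5 and Rnf7), through which SOCS proteins tag their targets, were tested at each time in each fraction and edgeR called 0 of 4 in all 8 comparisons, with 0 or 1 at an unadjusted p under 0.05. The share of all genes called ran from 0.157% to 7.61% over the 8 comparisons. For the partners the changes were small. Their median log2 changes were -0.17 (NeuN-) and -0.24 (NeuN+) at 6 h, with -0.55 and 0.08 for the same fractions at 24 h. Of 9 other negative regulators, Ptpn2, a phosphatase that acts on JAK kinases, rose in NeuN- nuclei at 6 h (1.65 ± 0.35, adjusted p = 7.88e-05), with a called interaction of -1.40 (adjusted p = 0.00925), and Ptpn11, the phosphatase SHP2, fell there at 24 h by 1.03 ± 0.29 (adjusted p = 0.00577). These were 1 of 5 and 1 of 7 tested (5.77% and 7.61% of all genes), with list medians of 0.44 and 0.16. In NeuN+ nuclei edgeR called 0 of 8 at both times (1.09% and 1.57% of all genes), with 2 and 2 at an unadjusted p under 0.05.

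The ISG15 system that USP18 opposes rose in part. Uba7, the E1 enzyme that starts ISG15 conjugation, rose in NeuN+ nuclei by 4.01 at 6 h and 4.89 at 24 h, Ube2l6, its E2 enzyme, by 3.35 at 24 h, and Herc6, an E3 ligase for ISG15 in the mouse, by 4.18 and 4.16. Over the 18 NeuN+ saline wells Uba7 had 3 UMIs and Ube2l6 had 11. Uba7 and Ube2l6 thus passed the count filter through their IFN-γ wells and could only look higher. In NeuN- nuclei Herc6 rose by 4.50, 4.84 and 2.66 at 6, 24 and 48 h and Trim25 by 2.18 at 6 h. Those were 2 of 4, 2 of 6, 1 of 5, 3 of 6 and 1 of 4 genes tested in NeuN- 6 h, NeuN+ 6 h, NeuN- 24 h, NeuN+ 24 h and NeuN- 48 h. Of all genes tested, 5.77%, 1.09%, 7.61%, 1.57% and 0.637% were called in these 5 comparisons. The list medians of the first 4 were 1.93, 1.05, 1.09 and 1.79. Of 11 receptors that SOCS proteins act on, edgeR called 1 of 7 tested in NeuN- nuclei at 6 h (5.77% of all genes) and 3 of 8 at 24 h (7.61%). Osmr, the oncostatin M receptor, rose in NeuN- nuclei at 6 h (1.62 ± 0.45, adjusted p = 0.00507) and 24 h (3.94 ± 0.80), and Ghr, the growth hormone receptor, and Egfr at 24 h (1.52 ± 0.25 and 1.45 ± 0.36). None of 10 was called in NeuN+ nuclei at 6 or 24 h by edgeR (1.09% and 1.57% of all genes), with 2 and 7 at an unadjusted p under 0.05. At 24 h the interactions of Ghr (-1.34 ± 0.26, adjusted p = 0.000152) and of Lepr, the leptin receptor (-6.21 ± 1.60, adjusted p = 0.00732), were called.

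Genes whose level ran most like that of a member were taken as the 3 with the highest Pearson r of log2(CPM + 1) over the 42 wells of a fraction, which share 1 plate, the treatment and the times. For Usp18 these were Rnf213 (0.962), Gbp5 (0.958) and Stat3 (0.950) among 11268 genes in NeuN+ nuclei, and Gng12 (0.846), Gbp8 (0.808) and 9330182L06Rik (0.793) among 11290 in NeuN- nuclei. For Socs1 in NeuN+ nuclei they were Parp10 (0.833), Erap1 (0.825) and Gbp7 (0.819), and for Socs2 in NeuN- nuclei Tma16 (0.723), Cxcl9 (0.689) and Rapgef6 (0.684). These are descriptions over wells that differ in depth.

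Single nuclei at 48 h placed the members in cell classes. The 3 libraries held 4699 nuclei, 1016 from the saline mouse and 2574 and 1109 from the IFN-γ mice, with median depths of 14646, 9404 and 11767 UMIs, and shared 0 barcodes. With 1 saline mouse, a test rests on the spread between the 2 IFN-γ mice, and a call needed a log2 change beyond 3 in both. Classes were rebuilt by clustering and named from markers, giving 1241 oligodendrocyte-like, 193 astrocyte-like, 437 dopamine neuron-like, 858 GABA neuron-like and 435 VGLUT2 neuron-like nuclei, with 1535 unnamed. Oligodendrocyte-like nuclei of the saline mouse fell mostly into other clusters than those of the IFN-γ mice: 2 of the clusters held 0 saline nuclei, and one of these was led by interferon-induced GTPase genes, so values in this class compare different clusters.

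Usp18 was still above saline in oligodendrocyte-like nuclei, with 0 UMIs in the saline mouse (191 nuclei, which allows a level of up to 4.32 CPM at 3 counts) and 34 and 37 in the IFN-γ mice, or 12.6 and 25.6 CPM. That is at least 3.97-fold, and the fitted change of 7.87 ± 1.67 (adjusted p = 0.000268) was called, where 0.625% of genes were; DESeq2 gave no adjusted p for it. With 0 saline UMIs the gene passed the 10-UMI filter through the IFN-γ mice alone and could only look higher, and the fitted size depends on the added count. Without IFN-γ mouse 1 or 2 there was no test or fit. The log2 ratio of CPM to saline, with a small constant added to both, was then 5.71 or 4.71. These ratios are not on the scale of the fitted change. A Usp18 UMI was found in 3.90% and 8.82% of these nuclei. In the astrocyte-like nuclei the levels were 0, 27.8 and 30.1 CPM (at least 1.03-fold, adjusted p = 0.596). In the neuron classes they were 4.02 and 4.49 CPM with IFN-γ against 1.75 in saline in dopamine neuron-like nuclei, 1.81 and 1.41 against 0 in GABA neuron-like, and 1.53 and 2.25 against 0 in VGLUT2 neuron-like nuclei. None of those was called (0.0503%, 0.0114% and 0.0128% of genes, and 0.116% in the astrocyte-like class), with GABA neuron-like Usp18 at an unadjusted p of 0.00757.

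The highest Usp18 level was in a small unnamed cluster of 134 nuclei whose leading genes were Inpp5d, Ly86, Cd74 and Ctss. All 6 microglial markers were detected in it, and of the marker lists the microglial one scored highest (4.68). Its nuclei had 0.314 of the median depth of their own samples and none of those markers led it, so under the naming rule it carries no name here. The study retained 134 microglia, and whether these are the same nuclei was not tested. In this cluster Usp18 stood at 35.7 CPM in saline (3 UMIs) and at 61.3 and 81.8 with IFN-γ (12 and 19 UMIs). Socs3 had 0, 4 and 6 UMIs there, Socs1 0, 2 and 3, and Socs2 0 in each library.

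Socs2 in single nuclei was highest in neurons. In the saline mouse it stood at 60.5 CPM in dopamine neuron-like nuclei, 27.2 in VGLUT2 neuron-like, 21.2 in GABA neuron-like and 1.44 in oligodendrocyte-like nuclei. For scale, the neuronal gene Snap25 was at 62.2 CPM in oligodendrocyte-like nuclei and at 673 to 858 CPM in the neuron classes. With IFN-γ the dopamine neuron-like levels were 64.3 and 50.3, the GABA neuron-like 24.7 and 19.7 and the VGLUT2 neuron-like 30.5 and 29.2. The changes of -0.07 ± 0.22, 0.06 ± 0.24 and 0.21 ± 0.31 on the log2 scale were not called.

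**Figure D4:**
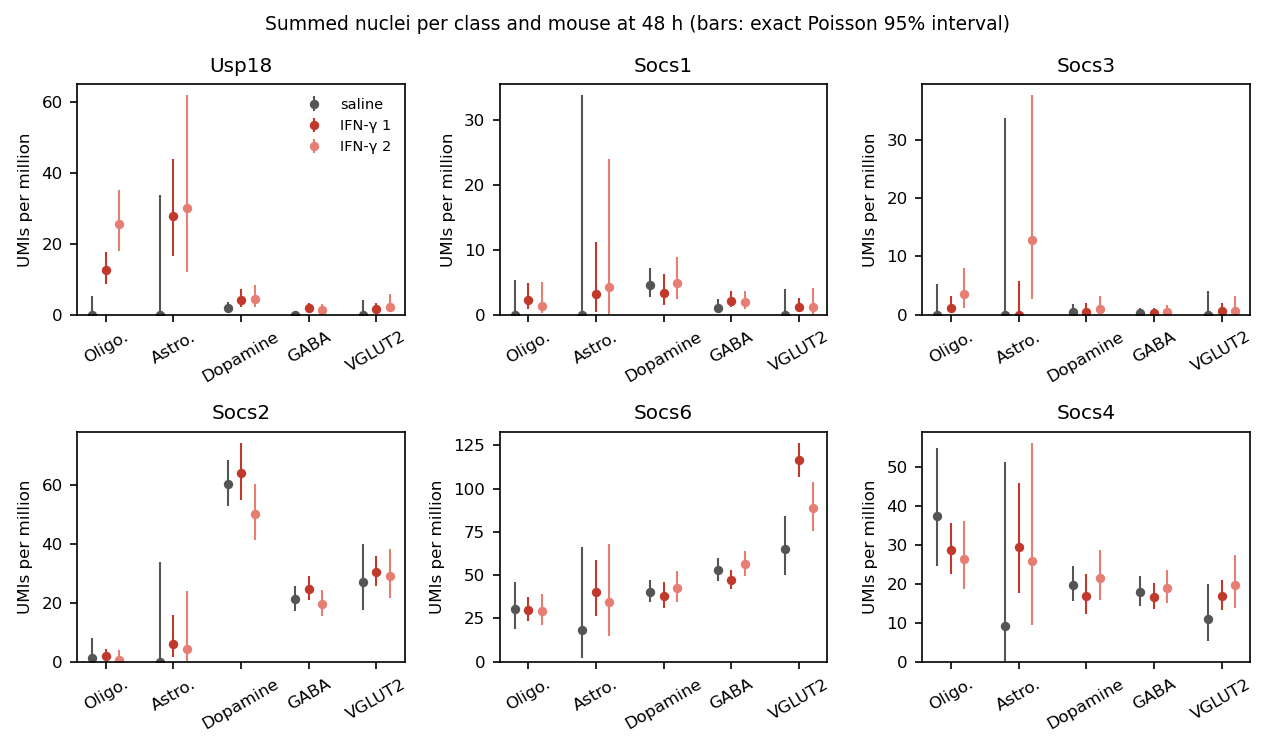
Level in CPM (y axis, bars are exact Poisson 95% intervals for counting error only) of Usp18, Socs1, Socs3, Socs2, Socs6 and Socs4 in 5 classes of nuclei (x axis) from the saline mouse and the 2 IFN-γ mice at 48 h. Usp18 in oligodendrocyte-like nuclei is at 0 in saline and at 12.6 and 25.6 with IFN-γ, and Socs2 is highest in dopamine neuron-like nuclei of all 3 mice (50.3 to 64.3).

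The remaining members were close to saline or sparse. Socs1 was at 4.50, 3.29 and 4.94 CPM in dopamine neuron-like nuclei of the saline and the 2 IFN-γ mice and at 1.01, 2.14 and 1.87 in GABA neuron-like nuclei. Socs3 had 0, 3 and 5 UMIs in oligodendrocyte-like nuclei, and Cish 12, 6 and 8 in GABA neuron-like nuclei. Socs6 in VGLUT2 neuron-like nuclei stood at 65.3 in saline and 108.6 over both IFN-γ mice, a ratio of 1.66, but this came from 1 cluster led by Lef1 and Prkcd with 2 saline and 90 and 15 IFN-γ nuclei. Without that cluster the levels were 65.4 in saline and 49.8 and 64.9 with IFN-γ.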

How the data were processed

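Deposited counts were used as they stood. The authors aligned reads with STAR in two-pass mode to GRCm38 with Gencode vM10 genes, collapsed UMIs and tabulated UMI counts per gene, for sorted wells (3′ RNA-Seq) and for single nuclei (introns included; doublets and poor nuclei removed by them). Strand use in counting was not given in the sources used here. Rows naming no gene held 0% of UMIs.

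Members and lists were chosen with earlier results of these data known. Wells were compared with edgeR 4.0.16 (R 4.3.3; TMM scaling, quasi-likelihood F-test, filterByExpr with a minimum count of 1 and total of 15), per fraction and time, with Benjamini-Hochberg adjustment over all genes; DESeq2 1.42.0 was an alternative. Named genes were all members, and list genes that were called. Nuclei were clustered with scanpy 1.11.5 (2000 variable genes, 30 components, 15 neighbours, Leiden resolution 1), classes summed per mouse and tested with edgeR at 10 or more UMIs. Intervals are exact Poisson at 95%. The scripts' tests were checked on simulated data. Alternatives tried were DESeq2 and its size factors, the default filter (minimum 10) and none, NeuN+ wells thinned to 110247.5 UMIs, saline of all times, 1 fit of all wells, other Leiden resolutions and leaving out each well. Of the pathway lists, 1 gene is not reported here.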

Additional observations from a re-analysis of the deposited data

Results flagged for a closer look

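In 10 of 102 groups of 4 to 6 wells 1 well lay far from the rest by Dixon's gap test, where chance gives about 1 in 20. A further 21 groups had UMIs in fewer than 50% of their wells and were not tested. Of the 10, 4 were the shallowest well of the series, the first NeuN- IFN-γ well at 6 h: Socs1 at 0 CPM (others 27.8 to 39.6), Socs5 at 0 (19.3 to 55.7), Usp18 at 0 (61.0 to 113) and Socs6 at 95.4 from 2 UMIs (28.9 to 43.7). The first NeuN+ saline well at 24 h gave 2, with Socs2 at 21.3 CPM (others 32.9 to 41.9) and Socs6 at 62.7 CPM (80.8 to 93.8). Single zeros were flagged for Socs5 in the third NeuN- IFN-γ well at 24 h (0 CPM; others 17.4 to 58.9), Socs7 in the sixth NeuN- saline well at 24 h (0; 29.7 to 48.5) and Socs7 in the third NeuN- saline well at 48 h (0; 36.3 to 50.5). The last was Socs7 in the fifth NeuN+ IFN-γ well at 48 h, at 51.2 CPM (37.8 to 41.9).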

How the results depend on the processing

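No paired analysis was possible because the replicate numbers are names in accession order and carry no pairing. Of 3854 alternative values for 240 results, counts of members called stayed within 1.5 times in 334 that leave out a well and 117 others, and moved in 14 and 17. DESeq2 called 1 member in NeuN- 6 h (3 by edgeR), 1 in NeuN+ 24 h (2), 1 in NeuN- 48 against 24 h (2), 1 in NeuN+ 24 against 6 h (2), 1 in NeuN+ 48 against 24 h (3) and 0 in oligodendrocyte-like nuclei (1), in part because it gave no adjusted p for sparse members. The default filter left 0, 0 and 0 in NeuN- 6 h, 24 h and 48 against 24 h, 1 in NeuN+ 24 h, 24 against 6 h and 48 against 24 h, and 1 of 5 in the saline fractions, since fewer genes were tested. No filter gave 1 in NeuN- 48 against 24 h. Saline of all times gave 3 in NeuN+ 6 h (1), adding Socs1 and Cish. Thinned NeuN+ wells and saline matched for Y-linked RNA each gave 1 in NeuN+ 24 h; the cause was not tested. Leaving out 1 well gave 2 to 3 in NeuN- 6 h and NeuN+ 24 h, 1 to 2 in NeuN- 48 against 24 h and NeuN+ 24 against 6 h, and 1 to 3 in NeuN+ 48 against 24 h. In thinned wells Socs2 in NeuN+ nuclei was at 0.60 and -0.74 at 6 and 24 h (adjusted p = 0.747 and 0.723 by edgeR).

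Sign changes were in members that were not called. Thinning gave Socs7 0.14 and 0.24 at 6 and 24 h, Socs5 0.032 and 0.0040 at 24 and 48 h, Socs6 -0.43 at 48 h, Socs4 -0.084 at 72 h, and interactions of 0.12 for Socs4 at 24 h and -0.15 for Socs6 at 48 h. Saline of all times gave -0.21 for Socs4 and -0.21 for Socs6 in NeuN- 24 h, 0.38 for Socs5 in NeuN- 48 h and -0.029 for Socs2 in NeuN+ 72 h. DESeq2 gave a Socs1 interaction of 2.08 at 24 h. Leiden 0.5 gave -0.69 and 0.28 for Socs2 and Socs4 in GABA neuron-like nuclei, and Leiden 2 gave -0.24 for Socs6 in VGLUT2 neuron-like nuclei. Without single wells Socs7 ran from -0.64 to 0.98 in NeuN- 6 h, from -1.09 to 0.62 in the 6 h interaction and from -0.67 to 0.64 in NeuN- 24 against 6 h, Usp18 from -2.82 to 0.99 in the 24 h interaction, and Cish from -3.06 to 0.86 and from -1.29 to 2.22 in NeuN+ 48 against 24 h and 72 against 48 h. Depth limits Cish, Socs1 and Socs3 in NeuN- wells.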
